A study of Homo sapiens with 6 samples.

Results

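Notch signalling genes were followed on 6 arrays of SH-SY5Y cells, an established human neuroblastoma line with a noradrenergic, neuron-like character. The 10 genes were MIB1, which encodes a ubiquitin ligase of the ligands; JAG1, DLL3 and DLK1, which encode ligands; NOTCH1, NOTCH2 and NOTCH3, which encode receptors; and HES1, HEY1 and HEY2, which encode target repressors. Their members on the array were all probe sets annotated to exactly 1 of these symbols, 38 of 49393 probe sets besides the manufacturer's controls. MIB1 and HEY2 are reported targets of the microRNA miR-137. In 3 samples the cells had been transfected with an anti-miR inhibitor of hsa-miR-137 (anti-miR-137), and in 3 with Anti-miR Negative Control #1 (control). Both were given at 15 pM, as the labels state it, with Lipofectamine RNAiMAX 24 hours after seeding, and total RNA was isolated 72 hours after transfection. The stated purpose was to identify candidate targets of miR-137 through its inhibition.

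All 6 samples were cells of the same line grown in the same medium, the groups differed by the transfected oligonucleotide, and the replicates were numbered 1 to 3 in each group. The labels do not say whether the replicates were separate cultures, so the p-values below measure the spread between these samples, which may be technical. RNA integrity numbers lay between 9.5 and 9.8, and array medians between 6.39 and 6.43 log2 units. The number of arrays, 3 a group, limits the precision. The array held 0 probe sets named for the miR-137 gene, so the inhibition itself was not checked here. Of 12 listed noradrenergic markers, 11 were tested, such as HAND2, GATA2, DBH and CHGA. All 11 were brighter than the olfactory receptor band described below. The 10 tested of 12 markers of mesenchymal, substrate-adherent neuroblastoma cells were brighter than the band too. This measure alone therefore does not set the identity of the line.

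Notch receptors are bound by ligands on a neighbouring cell. MIB1 attaches ubiquitin to the Delta and Jagged ligands, and the endocytosis that follows pulls on the receptor, which is then cut by ADAM proteases and by gamma-secretase. The released intracellular domain joins the DNA-binding protein RBPJ and switches on repressors of the HES and HEY families, which hold back neuronal differentiation genes in many progenitors. DLL3 and DLK1 differ from the classical ligands in that they do not activate the receptor on a neighbouring cell in the usual way. DLK1 is abundant in adrenal and sympathetic cells. A microRNA guides silencing complexes to mRNAs that pair with its seed, which lowers the mRNA or its translation, so that a target relieved of its microRNA can show a higher mRNA level.

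The mature microRNA that was inhibited is shown because its seed sets which mRNAs can be targets. It lies at chr1:98046091-98046113 on the minus strand (RefSeq, GRCh38.p14), and capitals mark bases 2 to 8, the seed. Among the mature human microRNAs of the RefSeq table, 1 had this seed, which was miR-137 itself.
hsa-miR-137-3p: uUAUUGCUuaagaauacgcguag

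RBPJ recognises DNA whose core is TGGGAA, and the promoters of the target genes are shown because HES1 and HEY2 serve as readouts of the pathway. Promoter windows from 250 bases before to 50 bases after the gene start (RefSeq, GRCh38.p14) were found for 7 of the 10 genes and searched on both strands for TGGGAA, which reads as TTCCCA from the opposite strand. The core was found in 2 of the 7 windows, those of HES1 and HEY2, and in 24.0% of all 35116 windows of that length. HES1 held it at positions -84 and -70 relative to the start, on the strand of the gene. HEY2 held it at -213 on the opposite strand and at -3 on its own strand. The windows of MIB1, JAG1, NOTCH1, NOTCH2 and NOTCH3 did not contain these letters. No window was found for DLL3, DLK1 and the target gene HEY1, so these were not searched. A match of these letters is a description and not evidence of binding. The lines below give bases 120 to 41 before the start of HES1 (chr3:194136028-194136107, plus strand) and bases 250 to 171 before the start of HEY2 (chr6:125749382-125749461, plus strand), with the core in capitals.
HES1: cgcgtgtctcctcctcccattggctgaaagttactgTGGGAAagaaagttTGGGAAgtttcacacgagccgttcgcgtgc
HEY2: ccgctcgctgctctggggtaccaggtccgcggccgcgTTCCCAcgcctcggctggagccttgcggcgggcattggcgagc

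Which of these genes gave a signal was judged against 360 probe sets of 334 olfactory receptor genes, most of which are silent outside the nose. Their mean log2 values had a median of 4.42 and a 95th percentile of 6.06. Of the 38 probe sets, 22 had a mean above that percentile. All 5 probe sets of MIB1, all 3 of DLL3, all 4 of DLK1 and both of HEY1 were above it. For JAG1 it was 2 of 6, for NOTCH1 2 of 3, for NOTCH2 2 of 5, for NOTCH3 1 of 2 and for HES1 1 of 5. None of the 3 probe sets of HEY2 was above it. Their means lay between 3.54 and 4.11, below the olfactory receptor median, so HEY2 could not be told from background on this array. Levels of different probe sets are not comparable with each other, since each probe set binds its transcript with its own strength, so the genes are not ranked by level here.

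**Figure D1:**
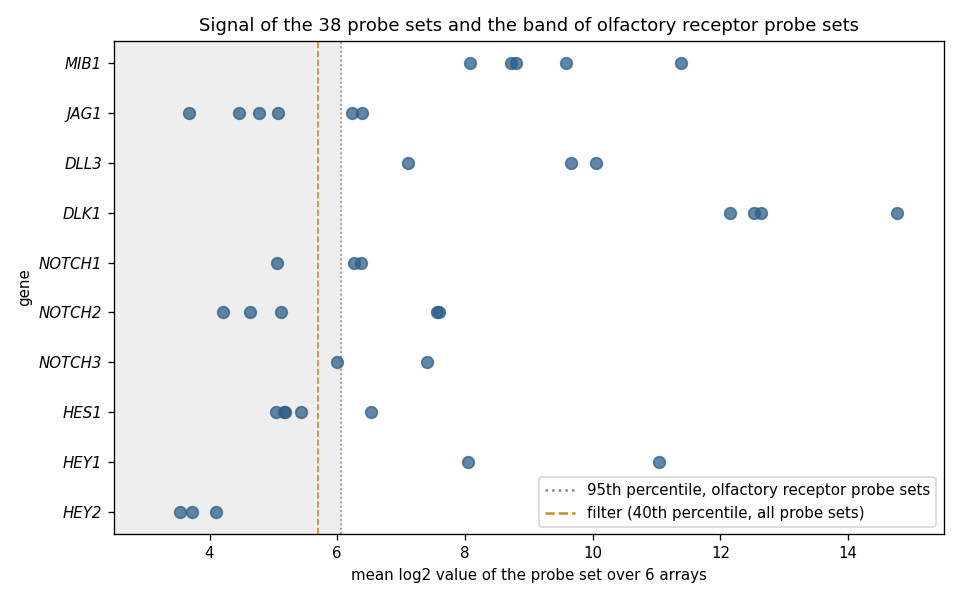
Mean log2 value over 6 arrays of each of the 38 probe sets (points), by gene. The shaded band ends at the 95th percentile of the olfactory receptor probe sets (6.06) and the dashed line is the filter on dim probe sets (5.69). MIB1, DLL3, DLK1 and HEY1 lie wholly to the right of the band and HEY2 wholly inside it.

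Inhibition of miR-137 was compared with control in 9 of the 10 genes, each represented by its brightest probe set; HEY2 did not reach the filter on dim probe sets, a mean log2 value of 5.69. None of the 9 genes passed limma's test after Benjamini-Hochberg adjustment over all 12639 genes (0% of all genes did), and each had an adjusted p of 1.00. At an unadjusted p under 0.05 there was 1 of 9 genes, NOTCH1, where the share over all genes was 2.65%. Of the 9, 4 had higher (background 52.0%) and 5 lower means in anti-miR-137 cells, with a median log2 fold change of -0.015 against 0.0033 over all genes. Over all 38 probe sets and 49393 in the test, 0 passed the adjusted threshold (background 0%) and 1 had an unadjusted p under 0.05 (background 3.48%). The groups did not overlap in 3 of the 38 probe sets, 1 each of JAG1, NOTCH1 and HES1, and all 3 were higher in anti-miR-137 cells (background 8.09% in either direction and 5.16% for higher). Of the 38 probe sets, 17 had higher (background 54.2%) and 21 lower means.

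**Figure D2:**
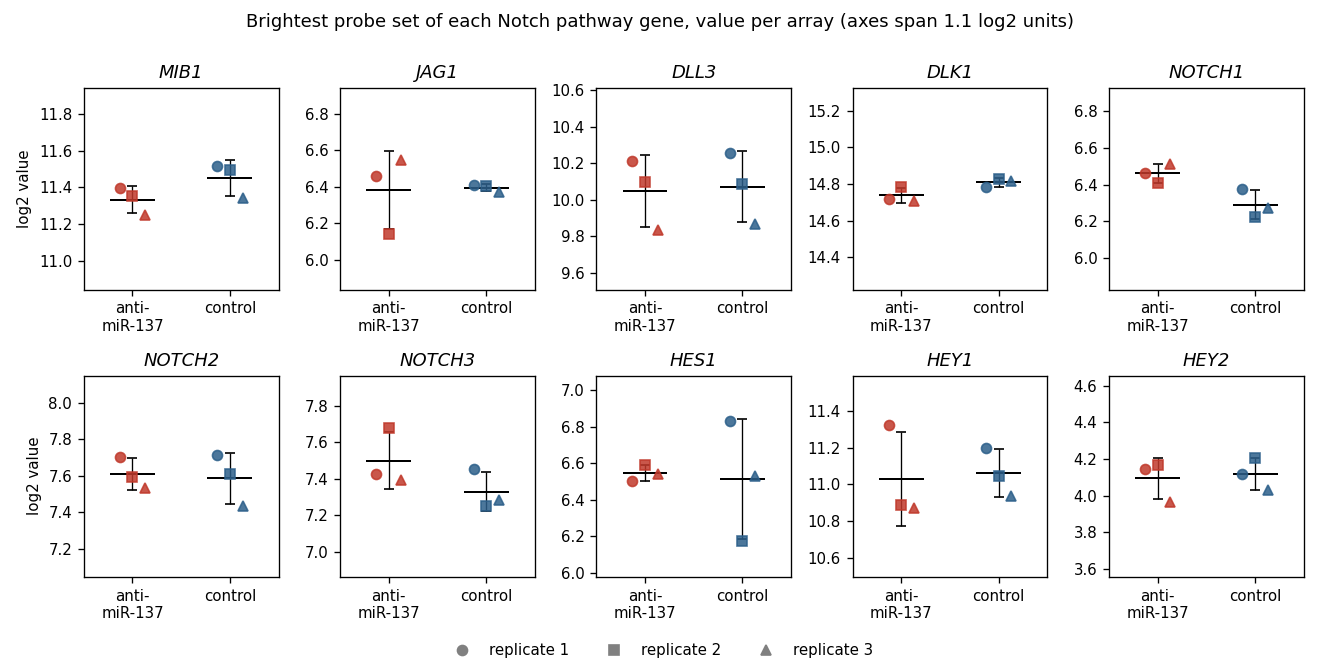
Log2 value per array (y axis) for the brightest probe set of each of the 10 genes, anti-miR-137 in red and control in blue, with the mean and SD of 3 arrays in black. Every panel spans the same height, 1.1 log2 units, at its own level. NOTCH1 is the 1 panel in which the groups do not overlap.

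MIB1, the reported miR-137 target, had lower and not higher means in anti-miR-137 cells. Its brightest probe set read 11.39, 11.35 and 11.25 in the anti-miR-137 arrays of replicates 1, 2 and 3 and 11.52, 11.50 and 11.34 in the control arrays. The replicate 3 array was lowest in each group, and the ranges overlapped. The means were 11.33 ± 0.08 and 11.45 ± 0.10 (SD, n = 3 each). The difference was -0.12 on the log2 scale (standard error 0.074, adjusted p = 1.00, limma). Its 95% confidence interval ran from -0.29 to 0.055.

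The other 4 probe sets of MIB1 also had lower means in anti-miR-137 cells, with log2 fold changes of -0.11, -0.05, -0.11 and -0.19. Probe sets of a gene measure the same RNA samples and are not independent. The widest gap rested on 1 array: that probe set read 8.17, 7.73 and 8.04 in anti-miR-137 cells and 8.18, 8.20 and 8.12 in control cells. The upper bounds of the 4 intervals lay between 0.077 and 0.11 log2 units, and the smallest unadjusted p of the 5 probe sets was 0.14 in limma. With each array left out in turn, the brightest probe set stayed lower, with log2 fold changes between -0.17 and -0.077.

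By its pattern over the 6 arrays, MIB1 was nearest to PDE6B, RABL2B, ZNF654 and CCDC30. The measure was the root mean square distance between deviations from each gene's own mean, which was 0.014 to 0.021 log2 units for these 4 and 0.13 for the median gene. The 4 were picked for their small distances, so the gap to the median gene follows from the choice. MIB1's own deviations had a root mean square of 0.092. After a further quantile normalization, 1 of these 4 was still among the nearest 4.

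Among the ligands, JAG1 is a classical Jagged ligand that activates receptors on neighbouring cells. Its brightest probe set read 6.46, 6.14 and 6.54 in anti-miR-137 cells and 6.41, 6.40 and 6.37 in control cells. The anti-miR-137 arrays lay on either side of the control arrays, which were close together. The log2 fold change was -0.015 with a 95% confidence interval from -0.26 to 0.23. The probe set next in brightness read 6.33, 6.36 and 6.21 against 6.15, 6.12 and 6.27, a log2 fold change of 0.12. The 4 remaining probe sets lay within the olfactory receptor band, with log2 fold changes from -0.15 to 0.18. The JAG1 probe set without overlap between groups was among these. It read 3.71, 3.88 and 3.65 against 3.58, 3.61 and 3.62, a level below the median of the olfactory receptor probe sets.

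DLL3, a Delta family member that acts inside the cell on receptors of that same cell, did not separate the groups. Its brightest probe set read 10.21, 10.10 and 9.83 in anti-miR-137 cells and 10.26, 10.09 and 9.87 in control cells. Within each group the replicate 1 array was highest and the replicate 3 array lowest. The log2 fold change was -0.02 with an interval from -0.32 to 0.28. The other 2 probe sets gave -0.01 and 0.06.

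DLK1, a transmembrane relative of the Delta ligands, read 14.72, 14.79 and 14.71 in anti-miR-137 cells and 14.78, 14.83 and 14.82 in control cells. The highest anti-miR-137 array overlapped the lowest control array. The log2 fold change was -0.07 with an interval from -0.20 to 0.061. This probe set had a mean of 14.8, and the highest value in the data was 15.3. Whether its level affected the size of the difference was not tested. The 3 other probe sets, with means from 12.2 to 12.6, had larger differences. They gave -0.22, -0.23 and -0.16, with unadjusted p of 0.10, 0.062 and 0.18 in limma. The one with the widest gap read 12.39, 12.59 and 12.27 against 12.66, 12.75 and 12.52, so that 1 anti-miR-137 array lay above the lowest control array. All 4 DLK1 probe sets carry a suffix that marks possible cross-hybridisation, so DLK1 had no value without such probe sets.

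**Figure D3:**
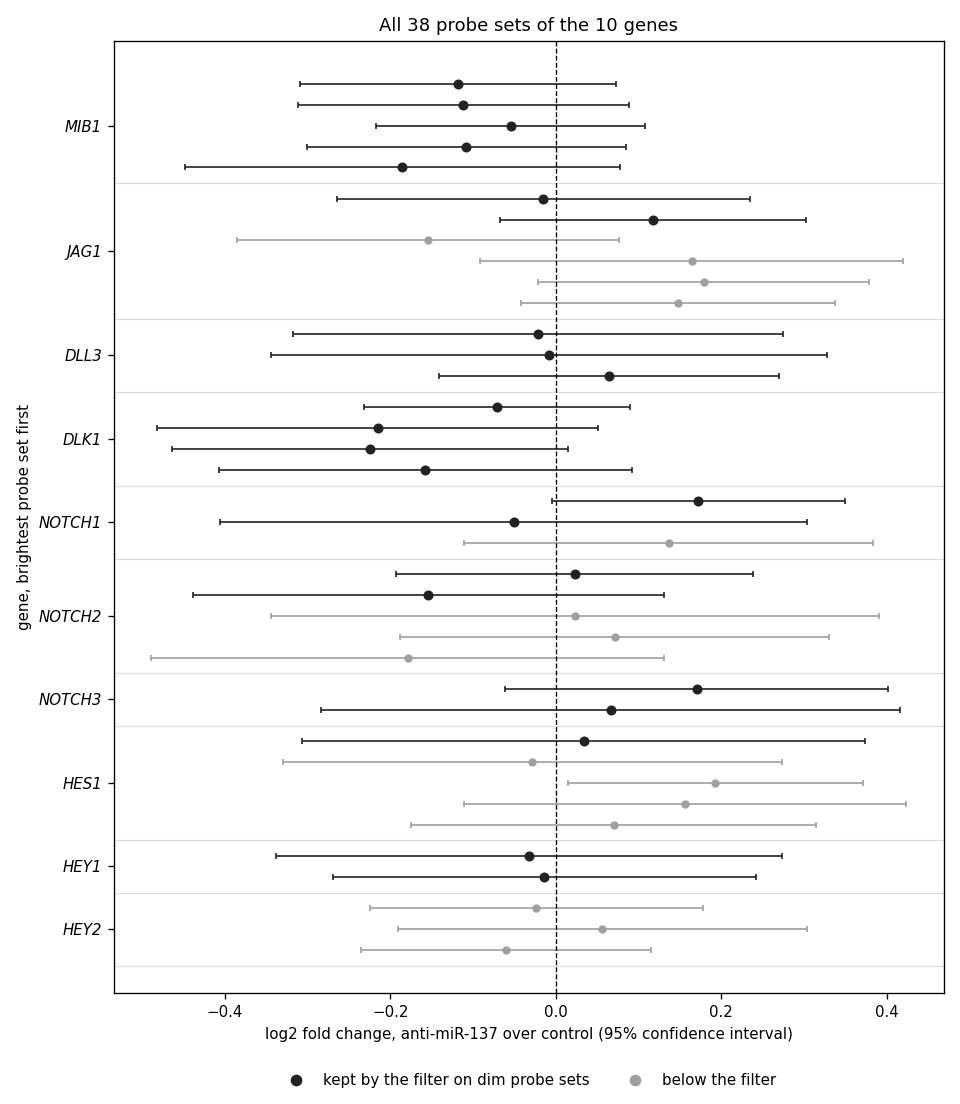
Log2 fold change of anti-miR-137 over control with its 95% confidence interval (limma over all 49393 probe sets, x axis) for all 38 probe sets, grouped by gene and ordered by brightness. All 5 MIB1 and all 4 DLK1 probe sets lie to the left of 0, and 1 interval, of a dim HES1 probe set, does not include 0.

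NOTCH1 was the receptor with the smallest p. Its brightest probe set read 6.46, 6.41 and 6.51 in anti-miR-137 cells and 6.38, 6.22 and 6.27 in control cells. The mean of this probe set over the 6 arrays, 6.38, was close to the end of the olfactory receptor band at 6.06. Every anti-miR-137 array lay above every control array; groups that do not overlap were found for 7.36% of all genes. The means were 6.46 ± 0.05 and 6.29 ± 0.08 (SD, n = 3 each). The difference was 0.17 on the log2 scale (standard error 0.066), with an unadjusted p of 0.034 and an adjusted p of 1.00 in limma. In the fit over all probe sets the unadjusted p of this probe set was 0.055. The other probe sets did not show that separation. The one of almost equal brightness read 6.54, 6.05 and 6.13 against 6.52, 6.28 and 6.07, a log2 fold change of -0.05. The remaining, dim probe set gave 0.14. With all kept NOTCH1 probe sets averaged, the log2 fold change was 0.061 with an unadjusted p of 0.56.

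Beside NOTCH1, the 3 of 6 endothelial markers bright enough to be tested (PECAM1, VWF and KDR) also had higher means in anti-miR-137 cells (background 52.0%). Their means over the 6 arrays were 6.26, 6.18 and 6.32, close to the end of the olfactory receptor band at 6.06. The mean of their log2 values per array was 6.26 to 6.45 in anti-miR-137 cells and 6.04 to 6.20 in control cells. None passed the adjusted threshold in limma (background 0%), and 2 of the 3, VWF and KDR, had an unadjusted p under 0.05 (background 2.65%). KDR overlapped between the groups and was lower with anti-miR-137 in replicate 1, 6.24 against 6.27. The other 3 endothelial markers lay within the olfactory receptor band. CDH5, which encodes the cadherin that defines endothelium, had a mean of 4.57, TEK 4.48 and ERG 5.46. Of 8 glial and Schwann cell markers, 3 were tested, and 1 of them, GFAP, which encodes an astrocyte filament protein, also had groups that did not overlap. It read 7.48, 7.47 and 7.59 in anti-miR-137 cells and 7.35, 7.34 and 7.25 in control cells. The difference was 0.20 on the log2 scale, and limma gave an unadjusted p of 0.014 and an adjusted p of 1.00. The other tested glial markers, SOX10 and S100B, had -0.07 and -0.03, and the list's mean level was 7.37 to 7.40 against 7.32 to 7.41. ERBB3, FABP7 and CDH19 of the glial list had means of 5.07, 4.29 and 3.60, within the olfactory receptor band. All 6 samples were cells of the same line, and any link of these marker values to the NOTCH1 value was not tested.

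NOTCH2 read 7.70, 7.59 and 7.53 in anti-miR-137 cells and 7.71, 7.61 and 7.44 in control cells on its brightest probe set. The groups covered almost the same range, and the log2 fold change was 0.02 with an interval from -0.18 to 0.23. The probe set of nearly equal brightness read 7.58, 7.22 and 7.64 against 7.76, 7.64 and 7.50, a log2 fold change of -0.15. The 3 other probe sets lay in the olfactory receptor band and gave 0.02, 0.07 and -0.18. A further 3 probe sets are annotated to NOTCH2 together with NOTCH2NLA, a near-identical partial copy of the gene, and were left out of the 38. Transcripts of such copies may also bind to probe sets annotated to NOTCH2 alone, so the NOTCH2 values are uncertain in that respect. The 3 shared probe sets had means within the olfactory receptor band and log2 fold changes of 0.18, 0.15 and 0.09. The first read 6.14, 6.10 and 6.15 against 6.03, 5.93 and 5.89, without overlap (background 8.09%). Its unadjusted p was 0.042 in limma (background 3.48% under 0.05), and it did not pass the adjusted threshold.

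NOTCH3 read 7.43, 7.68 and 7.39 in anti-miR-137 cells and 7.45, 7.25 and 7.28 in control cells. The anti-miR-137 array of replicate 2 was the highest of all 6, and the groups overlapped. The means were 7.50 ± 0.15 and 7.33 ± 0.11 (SD, n = 3 each). The log2 fold change was 0.17 with an interval from -0.05 to 0.39 and an unadjusted p of 0.12 in limma. Without the anti-miR-137 array of replicate 2 it was 0.081, and with array weights it was 0.28 (unadjusted p = 0.015 in limma). The second probe set, at the edge of the olfactory receptor band, gave 0.07.

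Among the targets, HES1 is the repressor most often used to read Notch activity in progenitor cells. Its brightest probe set read 6.50, 6.59 and 6.54 in anti-miR-137 cells and 6.83, 6.18 and 6.53 in control cells. The control arrays held both the highest and the lowest of the 6 values. The SD was 0.33 in control cells and 0.04 in anti-miR-137 cells (n = 3 each), and the log2 fold change was 0.03 with an interval from -0.32 to 0.38, the widest of the 9 genes. The direction depended on single arrays: the log2 fold change was -0.13 without the control array of replicate 2 and 0.19 without that of replicate 1.

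The 4 dimmer HES1 probe sets lay in the olfactory receptor band and gave log2 fold changes of -0.03, 0.19, 0.16 and 0.07. The 0.19 belonged to the 1 probe set of the 38 with an unadjusted p under 0.05 (0.037 in limma, adjusted p = 1.00), which read 5.22, 5.24 and 5.38 against 5.13, 5.09 and 5.05. By its pattern over the arrays the brightest HES1 probe set was nearest to ZNF440, MAPK4, FXYD2 and HOXC13, at root mean square distances of 0.028 to 0.059 log2 units, against 0.21 for the median gene. These 4 too were picked for their small distances, so the gap to the median gene follows from the choice. HES1's own deviations had a root mean square of 0.19. Under further quantile normalization and under median centring, at least 3 of these 4 stayed among the nearest 4.

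HEY1, a HES-related repressor, read 11.32, 10.89 and 10.87 in anti-miR-137 cells and 11.20, 11.04 and 10.94 in control cells. In each group the replicate 1 array was the highest. The log2 fold change was -0.03 with an interval from -0.34 to 0.28, and the second probe set gave -0.01. With the RNA integrity number as covariate the log2 fold change was -0.21 (unadjusted p = 0.11 in limma). HEY2, the other reported miR-137 target, read 4.15, 4.17 and 3.97 against 4.12, 4.20 and 4.03 on its brightest probe set, a log2 fold change of -0.02. Its other 2 gave 0.06 and -0.06. With all 3 in the olfactory receptor band, these differences say nothing about a change of HEY2 mRNA.

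Replicate numbers were compared because they repeat in both groups. Whether a number means the same in both groups is uncertain. The deviations of its 2 arrays from their group means correlated at 0.55, 0.073 and 0.65 in replicates 1, 2 and 3, so the numbers were not treated as a pairing. DLL3 and HEY1 differed more between replicates 1 and 3 than between treatments, by 0.38 and 0.36 against 0.02 and 0.03 log2 units in size. NOTCH2, HES1, MIB1 and JAG1 did so too, with smaller differences between replicates, while DLK1, NOTCH1 and NOTCH3 did not. For JAG1 the sizes were 0.024 and 0.015. A replicate mean holds 2 arrays and a treatment mean 3, so the sizes are not directly comparable and nothing is read from their order. The share of all genes with this order was not counted. An F-test in limma asked whether the 3 replicate numbers differed, with treatment in the model. None of the 9 genes passed after adjustment over all genes, where 2.53% of the 12639 genes did. At an unadjusted p under 0.05 there were 3 of 9 genes, DLL3, HEY1 and NOTCH2, where the share over all genes was 23.5%, so the count is near the background. Of the 38 probe sets, 11 had an unadjusted p under 0.05 (background 14.0%) and 0 passed the adjusted threshold (background 0%). Replicate 3 had the higher mean than replicate 1 in 2 of the 9 genes (background 47.0%), and the median difference was -0.13 log2 units, against -0.012 over all genes.

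DLL3 had the lowest p of the 9 genes in this comparison. The means of its anti-miR-137 and control arrays were 10.23 for replicate 1, 10.09 for replicate 2 and 9.85 for replicate 3, with no overlap between the pairs of arrays. The difference of replicate 3 minus replicate 1 was -0.38 log2 units (adjusted p = 0.058 in limma's F-test). The next DLL3 probe set gave 9.88, 9.68 and 9.44. The call for DLL3 depended on the model: the adjusted p was 0.017 with a filter at the 60th percentile, 0.0016 with a variance prior that follows the signal level, 0.042 with array weights and 0.035 without treatment in the model. It ranged from 0.0016 to 0.37 over all alternatives, and the difference from -0.42 to -0.33 log2 units.

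HEY1 had means of 11.26, 10.97 and 10.91 for replicates 1, 2 and 3, and a difference of replicate 3 minus replicate 1 of -0.36 log2 units (adjusted p = 0.11 in limma's F-test). It passed with the filter at the 60th percentile (adjusted p = 0.047) and with the variance prior that follows the signal level (0.0037), and ranged up to 0.39 over all alternatives. Both replicate 1 arrays were above the other 4. NOTCH2 had means of 7.71, 7.60 and 7.48 (adjusted p = 0.19). MIB1 was lowest in replicate 3 too, with 11.46, 11.42 and 11.29 (adjusted p = 0.26). On the brightest probe sets, the adjusted p was 0.48 for JAG1 and between 0.52 and 0.77 for DLK1, NOTCH1, NOTCH3 and HES1.

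Other probe sets of NOTCH1, NOTCH3 and DLK1 differed more between replicate numbers than the brightest ones did. The second NOTCH2 probe set differed less, by -0.096 log2 units for replicate 3 minus replicate 1 (unadjusted p = 0.30 in limma's F-test). The brightest had -0.22 (0.089) in the same fit over all probe sets. A dim NOTCH2 probe set within the olfactory receptor band had -0.22 (0.035). The second NOTCH3 probe set, at the edge of the olfactory receptor band, had means of 6.23, 6.02 and 5.76 for replicates 1, 2 and 3. Its difference of replicate 3 minus replicate 1 was -0.46 log2 units (unadjusted p = 0.0088 in limma's F-test). The NOTCH1 probe set of almost equal brightness to the first had 6.53, 6.17 and 6.10, a difference of -0.43 (unadjusted p = 0.012, limma). The 3 DLK1 probe sets below the brightest were highest in replicate 2 and lowest in replicate 3, with unadjusted p of 0.018, 0.040 and 0.030 in limma. None of these passed after adjustment over all probe sets. With the kept probe sets of each gene averaged, 5 of the 9 genes had an unadjusted p under 0.05 (background 24.4%) and 0 passed the adjusted threshold. They were DLL3, DLK1 (unadjusted p = 0.019 in limma), HEY1, NOTCH1 (0.021) and NOTCH3 (0.044), and NOTCH2 was then not among them.

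Proliferation markers also differed between the replicate numbers. All 15 tested ones, such as MCM2 and RRM2, had higher means in replicate 3 than in replicate 1 (background 47.0%), and 6 of the 15 passed the adjusted threshold in the same F-test (background 2.53%). Their mean level in replicate 1 was 10.84 with anti-miR-137 and 10.80 with control, against 11.02 and 10.99 in replicate 2 and 11.28 with either treatment in replicate 3. Of 12 markers of mesenchymal, substrate-adherent neuroblastoma cells, 10 were tested. Their mean level was 9.31 and 9.15 in the replicate 1 arrays and between 8.97 and 9.06 in the other 4. Replicate 3 had the higher mean than replicate 1 for 3 of the 10 (SNAI2, LUM and TWIST1) and the lower mean for the rest. YAP1, a transcriptional coactivator of that state, was the 1 of 10 that passed (lower in replicate 3, adjusted p = 0.048 in limma). PRRX1, which encodes a defining factor of that state, and CD44 had means of 5.09 and 4.74, within the olfactory receptor band. Of the 3 tested glial markers 0 passed the F-test. The 11 noradrenergic markers had mean levels from 12.28 to 12.44 in all 6 arrays, with 0 of 11 past the threshold. In that F-test 5 of the 11 had an unadjusted p under 0.05 (background 23.5%). Single markers went either way in replicate 3 minus replicate 1, such as SLC18A1 (0.30) and CHGB (-0.27). The part of these markers in the values of DLL3, HEY1 and NOTCH2 was not tested. In bulk samples, fewer cells of a type and less RNA per cell cannot be told apart.

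**Figure D4:**
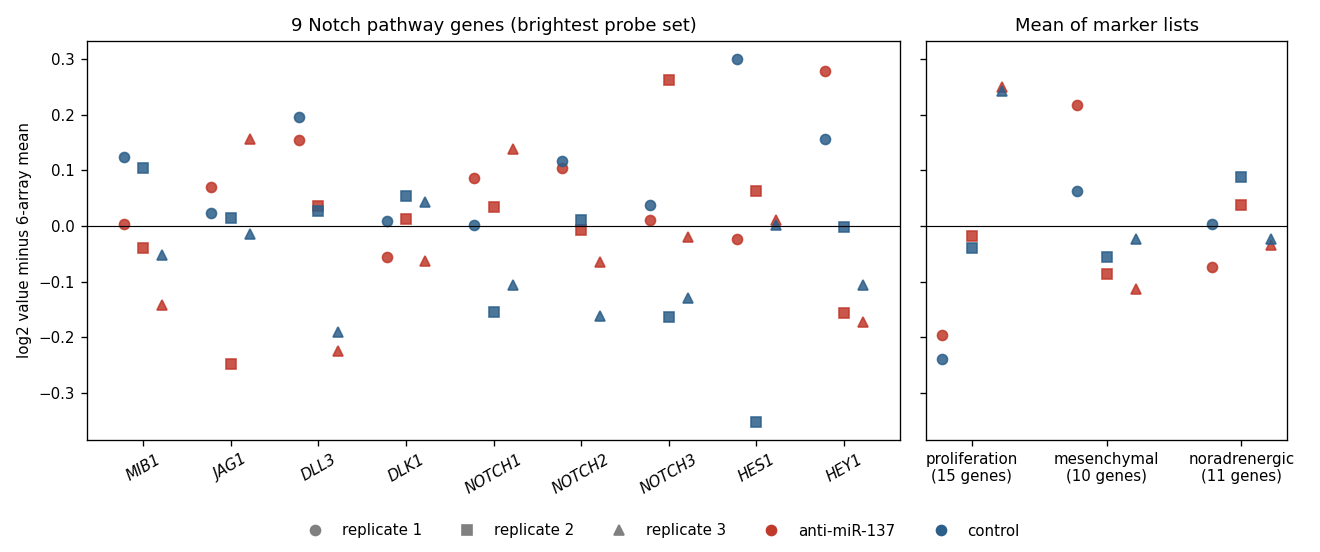
Log2 value minus the 6-array mean (y axis) for the 9 tested genes (left) and for the mean of 3 marker lists (right), by replicate number (symbol and position) and treatment (colour), 1 point per array. DLL3 and HEY1 are highest in the replicate 1 arrays, where the proliferation list is lowest.

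The rest of the pathway was read from 75 further genes in 9 lists. Of these, 70 had a probe set of their own and 64 reached the filter. None of the 64 passed limma's test of treatment (background 0%), and 0 had an unadjusted p under 0.05 (background 2.65%). Of them, 30 had higher (background 52.0%) and 34 lower means in anti-miR-137 cells, with a median log2 fold change of -0.0082 against 0.0033 over all genes. The groups did not overlap for 5 of the 64 (background 7.36%), JAG2, POGLUT1, NUMB, CREBBP and NRARP.

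In the order of the pathway, 2 other ligands were tested, JAG2 with a log2 fold change of 0.16 (unadjusted p = 0.051 in limma) and DLL1 with -0.10. The fourth receptor, NOTCH4, had -0.07 with an interval from -0.36 to 0.23. Of 7 proteins described as non-canonical ligands, 2 had higher (background 52.0%) and 5 lower means. The contactins CNTN6 (-0.26) and CNTN1 (-0.16) had the smallest p. With an array left out CNTN1 ranged from -0.26 to -0.067. Of 5 genes of ligand endocytosis, 4 had higher means (background 52.0%). MIB2, the paralog of MIB1, had 0.04 with an interval from -0.11 to 0.19, and NEURL1, another ubiquitin ligase, had 0.12. Both depended on single arrays: with each array left out in turn MIB2 ranged from 0.0097 to 0.073 and NEURL1 from 0.0029 to 0.25.

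Of 13 genes of receptor glycosylation and cleavage, 8 had higher (background 52.0%) and 5 lower means. ADAM10, the protease that makes the first ligand-induced cut, had -0.13 with an interval from -0.29 to 0.036, and POGLUT1, which adds glucose to the receptor, had 0.10. Of 9 genes of receptor turnover, 3 had higher means (background 52.0%), and the ubiquitin ligases NEDD4 (-0.15) and ITCH (-0.12) had the smallest p. With an array left out they ranged from -0.23 to -0.072 and from -0.23 to -0.029. Of 14 genes of the nuclear complex and its corepressors, 8 had higher means (background 52.0%). The acetyltransferases CREBBP (-0.11) and EP300 (-0.10), which the Notch complex recruits, had the smallest p there.

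Of 12 other HES and HEY family members and Notch targets, 3 had higher (background 52.0%) and 9 lower means, and none passed the adjusted threshold in limma (background 0%). NRARP, a feedback inhibitor that Notch induces, had 0.10 and HES2 had -0.16. The last list, of proneural and other transcription factors, had 2 tested genes, HAND1 (0.08) and NEUROG2 (-0.02). Of these, NEUROG2 is a proneural factor, a kind of gene that HES repressors hold back. In the F-test of replicate number, 2 of the 64 genes passed after adjustment (background 2.53%) and 21 had an unadjusted p under 0.05 (background 23.5%). The 2 were NEUROG2, with a difference of replicate 3 minus replicate 1 of -0.88 log2 units (adjusted p = 0.034, limma), and the cyclin gene CCND1, with one of 0.62 (adjusted p = 0.043, limma).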

How the data were processed

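Total RNA (100 ng) was amplified, labelled with biotin and hybridised to 1-colour oligonucleotide arrays, per the labels. Each deposited value is the log2 signal of a probe set, made by the authors with RMA in R 3.0.1, per the submitters' processing notes. RMA makes the array distributions alike, so a shift of all transcripts together cannot be seen. Scanner files were not used here, and the annotation holds no genome positions for the probe sets.

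Genes were formed from probe sets with 1 gene symbol (45278 of 49393). They were fitted with limma 3.58.1 in R 4.3.3, two-sided, with treatment as the only term, on the brightest probe set of each gene with a mean at or above the 40th percentile (12639 genes). All 49393 probe sets, of which 1333 had several symbols and 2782 none, were fitted in the same way without a filter; values of a gene's brightest probe set are from the gene fit, those of other probe sets from the second. The threshold was an adjusted p of 0.05. An F-test of the replicate number had treatment as covariate. Steps were tested on simulated data. Genes were named by rule: the 10 genes, the 2 genes of each pathway list with the smallest p, and the 4 nearest genes to MIB1 and HES1. CCND1, the markers, NUMB and other single genes were named after their values were seen. The genes and lists were chosen with earlier results of these data known. Alternatives are in the closing section.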

Additional observations from a re-analysis of the deposited data

How the results depend on the processing

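The count of 0 genes, and of 0 of the 9 Notch genes, past the adjusted threshold for treatment was the same in limma under all 16 alternatives (0 to 0 with an array left out), and so was that of the probe sets under all 8. The count at an unadjusted p under 0.05 was 335 genes in the main setting, 642 without a filter, 169 with the filter at the 60th percentile, 1091 when arrays were weighted, and between 198 and 587 when each array in turn was removed. Among the 9 Notch genes it was 1 (NOTCH1) in the main setting and under 7 of the 16 alternatives. It was 2 with array weights, which added NOTCH3, and 0 with the stricter filter, which NOTCH1 did not reach, with averaged probe sets, with the trend, with the RNA integrity number and when any 1 of 4 arrays was left out (anti-miR-137 replicates 1 and 3, control replicates 2 and 3). The log2 fold changes of MIB1, DLK1, NOTCH1 and NOTCH3 kept their sign throughout. Others changed sign: with probe sets averaged, JAG1 (0.051), DLL3 (0.011) and NOTCH2 (-0.066); without probe sets that may cross-hybridise, JAG1 (0.12) and CREBBP (0.0064); with quantile normalization, NEUROG2 (0.0057); with array weights, DLL3 (0.0068), NOTCH4 (0.021) and NEUROG2 (0.086); with the RNA integrity number, NOTCH2 (-0.027), HES1 (-0.043) and NOTCH4 (0.055). With an array left out the ranges were -0.097 to 0.11 for JAG1, -0.12 to 0.085 for DLL3, -0.052 to 0.087 for NOTCH2, -0.13 to 0.19 for HES1, -0.18 to 0.045 for HEY1, -0.14 to 0.064 for NOTCH4, -0.023 to 0.18 for HAND1 and -0.28 to 0.27 for NEUROG2. At least 1 alternative moved the value by over 1.5 times or turned its sign for all 9 Notch genes and for 16 of the 17 named pathway genes (not JAG2), and an array left out did so for 7 and 13. The cause was not tested.

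Replicate number gave 320 genes past the adjusted threshold, 2 without a filter, 1099 with the stricter filter, 1797 with a variance prior with trend, 637 with array weights, 526 without treatment in the model and 0 to 540 with an array left out, which leaves 1 array for a number; it was 0 when any 1 of the 4 arrays of replicates 1 and 3 was left out and 540 without control replicate 2. Of the 9 Notch genes, 2 passed with the stricter filter and 2 with the trend, 1 with array weights, 1 without treatment in the model, and 0 to 0 with an array left out. Over probe sets the count was 0, and 3 with the filter. The difference of replicate 3 minus replicate 1 changed sign for DLK1 with probe sets averaged (-0.099), and with an array left out it ranged from -0.12 to 0.16 for JAG1, -0.013 to 0.040 for DLK1, -0.093 to 0.038 for NOTCH1, -0.25 to 0.048 for NOTCH3 and -0.40 to 0.14 for HES1. The deviations of the 2 arrays of a number from their group means correlated at 0.55 in replicate 1, 0.073 in replicate 2 and 0.65 in replicate 3, so the numbers were not treated as a pairing. With the replicate block 0 genes passed the treatment test, 815 had an unadjusted p under 0.05 (6.45% of all genes), and of the 9 Notch genes 0 passed and 1 had such a p. Over all probe sets 0% passed and 5.75% had an unadjusted p under 0.05, and of the 38 Notch probe sets 0 passed and 4 had one, 2 of DLK1 and 1 each of NOTCH1 and HES1.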
